A study of Mus musculus with 16 samples.

Results

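The collagen chains are the genes that encode the alpha chains of collagen, and they were described here by collagen class in the ventricles of neonatal mice. Members were all genes of the deposited count table whose Ensembl identifier maps to a mouse symbol made of Col, a number, a and a number, with Col6a5 left out. This gave 43 of 22468 genes. The 9 classes held 11 fibrillar chains, 6 basement membrane network chains (type IV), 5 beaded filament chains (type VI), 1 anchoring fibril chain, 3 short-chain network chains, 9 fibril-associated (FACIT) chains, 2 multiplexins, 4 transmembrane collagens and 2 others.

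Polyadenylated RNA of whole ventricles, from above and below the ligature that causes the infarct, was sequenced in 16 libraries. They form 4 groups of 4: wild type after sham surgery (WT sham), wild type after myocardial infarction (WT MI), Chrna7 knockout after sham surgery (KO sham) and Chrna7 knockout after myocardial infarction (KO MI). The knockout is the line Jax #003232, and Chrna7 encodes the alpha 7 nicotinic acetylcholine receptor. The title of the series names the cholinergic anti-inflammatory pathway and heart regeneration as its subject. All mice were neonatal, and no other allele or agent is named in the labels. The labels give neither an exact age, sex, litter or time after surgery, nor whether each library is a separate animal, so p-values measure only the spread between these libraries.

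Collagen chains fold in threes into a triple helix in the endoplasmic reticulum, after prolines and lysines have been hydroxylated. Fibrillar collagens are then secreted, trimmed at their ends and packed into cross-linked fibrils that carry tension, and in a healing infarct they build the scar. Type IV collagens instead form the sheet-like network of basement membranes around cardiomyocytes, vessels and nerves, while the remaining classes decorate fibrils, anchor membranes or form fine networks.

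Some libraries stood apart before any collagen result is read. Gene counts ranged from 10711442 to 17223580 per library, and all 8 cardiomyocyte markers were present, summing to 47314 to 87324 CPM (counts scaled to library size) per library. The KO sham libraries lay at 27.9 to 31.6 on the first principal component (25.5% of the variance), against 0.97 or less for the other 12. Libraries WT sham replicate 1, KO sham replicate 2 and KO MI replicate 1 had 1.73 to 2.74 CPM of Y-linked genes, against 152 to 231 CPM in the others. Chrna7 had 0 to 4 reads per library, at or near the floor of 3 reads, so it could not check the genotype labels. Nor do the counts show which part of the gene a read came from. After sham it stood at 0.0568 ± 0.0710 CPM in the knockout and 0.0873 ± 0.102 in wild type (SD, n = 4), with an exact two-sided permutation p of 0.657, where the smallest possible p is 0.0286. After infarction it stood at 0.187 ± 0.0601 and 0.0640 ± 0.0797 CPM (p = 0.0857 by the same exact test).

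KO MI replicate 4 differed from the other 3 KO MI libraries in many measures, and the collagens were among them. The 43 chains together took 0.693% of its gene counts, against 1.23 to 1.33% in the other 3. Of the 38 tested chains, 33 lay below the mean of those 3 libraries, by a median of 0.36 on the log2 scale (deviation -0.36). Mitochondrially encoded genes took 17.3% of its counts against 9.79 to 10.6%, and the 25% of other genes with the highest GC content deviated by a median of -0.22 on the log2 scale, while the longest 25% deviated by 0.05. The cardiomyocyte markers summed to 47314 CPM in it against 69642 to 74160, the fibroblast markers without collagens to 1665 against 2135 to 2311, the activated fibroblast markers without collagens to 1468 against 1028 to 1053, the macrophage markers to 462 against 220 to 334 and the lung epithelium markers to 313 against 39.3 to 55.0. The part of these values in the collagen results was not tested, so the calls of collagen chains that use the KO MI libraries are given with and without this library. In the main fit the spread of each gene came from all 16 libraries, so this library also enters the errors of the other comparisons.

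**Figure D1:**
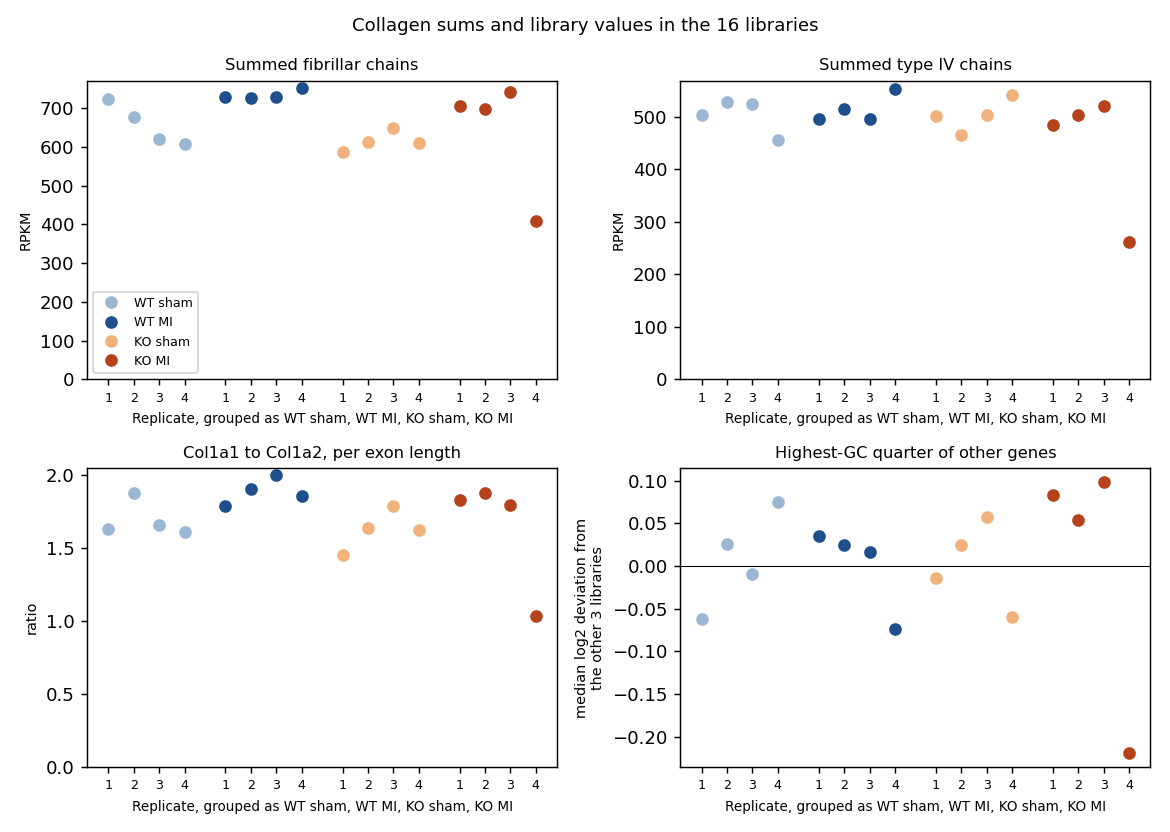
Values of each of the 16 libraries, coloured by group and ordered by replicate: summed RPKM (reads scaled to exon length and library size) of the fibrillar chains and of the type IV chains, the ratio of Col1a1 to Col1a2, and the median log2 deviation of the 25% of other genes with the highest GC content from the other 3 libraries of the group. KO MI replicate 4 is the lowest library in all 4 panels, with fibrillar chains at 409 RPKM and a deviation of -0.22.

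The chains spanned a very wide range of levels. Per exon length (RPKM, reads scaled to exon length and library size), the mean level over the 16 libraries differed 6151-fold between the highest and the lowest tested chain, and 7 chains held 83.4% of the summed RPKM. These were Col3a1 (319 RPKM), Col4a1 (254), Col4a2 (221), Col1a1 (169), Col6a1 (106), Col1a2 (97.6) and Col15a1 (62.2), so the main chains of type III, IV, I and VI collagen and the multiplexin of the basement membrane zone led. Col3a1 ranked 136 among the 13412 tested genes by mean RPKM. At the other end, 17 tested chains were under 1 RPKM. The order of Col1a1 and Col1a2 depends on the length used: per union of exons Col1a1 stood 1.69 times higher in WT sham, and per longest transcript 0.805 times as high.

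Of the 43 chains, 38 passed the filter on low counts and 5 did not. The untested ones were Col2a1, the main cartilage collagen (1 to 15 reads per library), Col6a4 (0 to 5), Col10a1 of hypertrophic cartilage (0 to 2), Col17a1 of epithelial hemidesmosomes (0 to 8) and Col19a1 (0 to 4). Of the tested chains, 34 were over the filter level of 0.742 CPM in every library of every group, so their testing does not rest on 1 group. Col9a1, Col9a3, Col22a1 and Col25a1 were not, and Col22a1 was over it throughout only in WT MI. The tested chains were long and rich in GC: their median exon length was 7543 bases against 4482 for all tested genes, and their median GC content 55.4% against 49.97%.

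**Figure D2:**
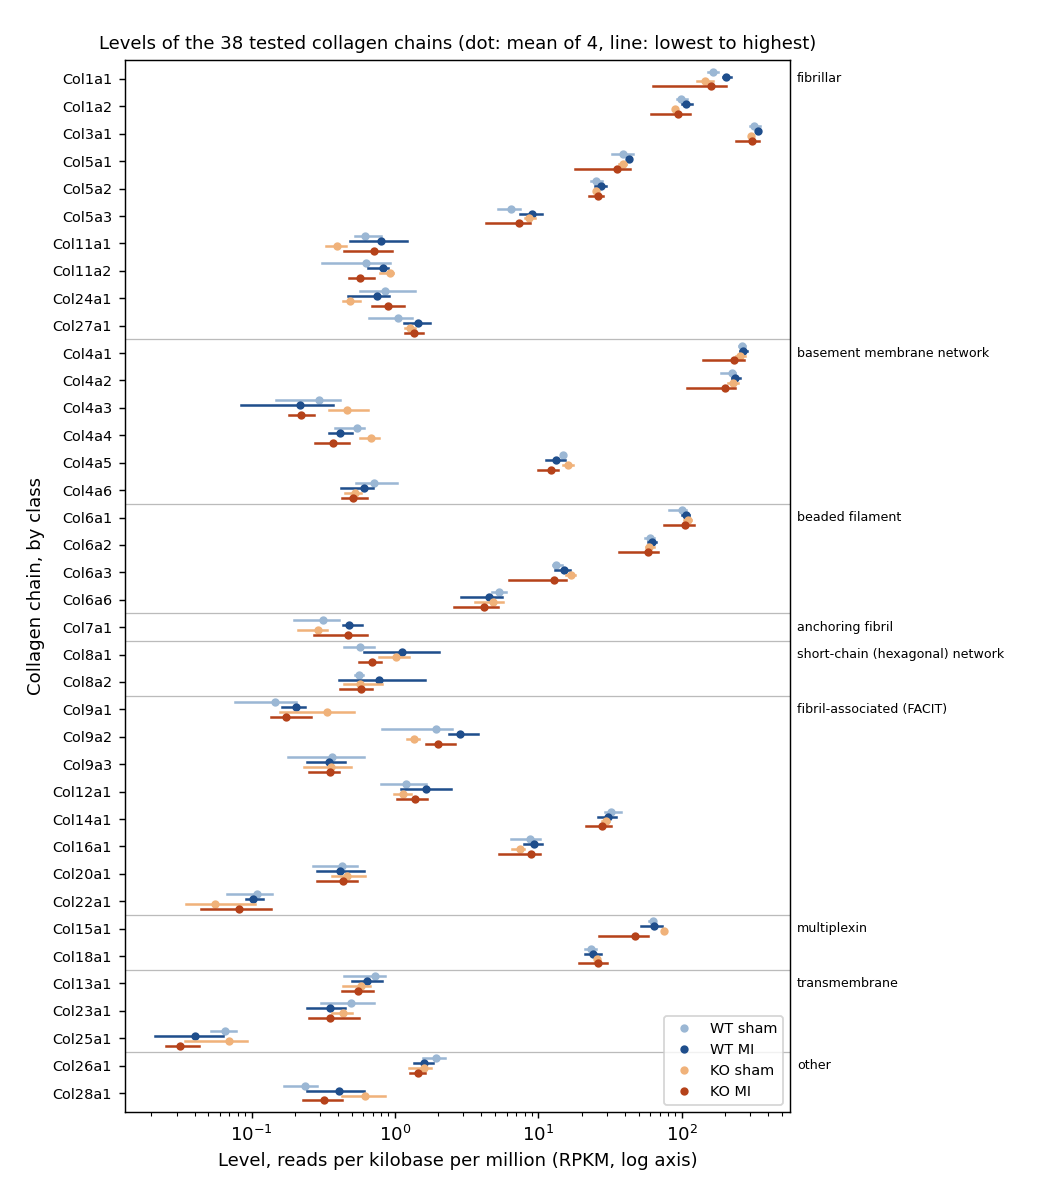
Level of each tested chain in RPKM on a log axis, by class. Dots are means of the 4 libraries of a group and lines run from the lowest to the highest library. The 7 highest chains lie at 62.2 RPKM or more on average, and the long lines to the left in KO MI come from replicate 4.

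Cartilage and bone of the chest wall could carry minor collagens into a ventricle sample. The markers of that tissue were close to absent: Ibsp had no read in any library, Snorc reached 0.0858 CPM, Matn1 reached 0.172 CPM, and Acan, which valves also express, lay between 1.74 and 9.61 CPM. In wild type the 9 markers summed to 3.59 to 6.48 CPM after sham and 2.38 to 10.5 CPM after infarction, and in the knockout to 3.77 to 4.93 and 2.51 to 5.96 CPM. Of the 5 tested skeletal muscle markers, edgeR called Myh8 and Ckm lower in KO sham than in WT sham. Their log2 fold changes were -2.72 and -0.31 (adjusted p = 3.15e-05 and 0.0413). Ckm lost its call in 7 of 8 fits that left out 1 library. It lay between 2239 and 3418 CPM in every library, while Mylpf and Tnnt3 reached at most 2.88 and 2.28 CPM. Ckm therefore cannot be read as a measure of chest wall muscle here. Myh8 rose in the KO response (1.97, adjusted p = 0.00102) and was higher in the interaction (2.39, adjusted p = 0.00593). Without KO MI replicate 4 these values were 2.04 (adjusted p = 0.00133) and 2.47 (adjusted p = 0.00654 by edgeR). The part of this tissue in the collagen values was not tested. A lower total of a transcript can come from fewer cells of a type or from less RNA per cell, and bulk counts cannot tell these apart.

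Markers of other cell types moved with the KO sham group. Of the 9 epicardium and mesothelium markers, 8 were lower in KO sham than in WT sham, 8 rose in the KO response and 8 were higher in the interaction, and 1 (Upk3b) fell in the WT response. Of all tested genes 7.74% were lower after sham and 8.54% rose in the KO response. In the interaction 1.65% were higher, and 0.932% fell in the WT response. The WT call of Upk3b was lost in all 8 fits that left out 1 library. Without KO MI replicate 4 the KO response calls held, but the interactions of Krt8 and Krt18 were lost (adjusted p = 0.069 and 0.0552 by edgeR). Without the 3 libraries low in Y-linked genes those of Krt19 and Wt1 were lost (adjusted p = 0.0559 and 0.0676). The 9 markers summed to 102 to 155 CPM in WT sham, 32.9 to 41.9 in KO sham, 68.7 to 85.0 in WT MI and 56.3 to 138 in KO MI. Of the 8 smooth muscle and pericyte markers, 3 were higher in KO sham than in WT sham (Rgs5, Kcnj8 and Pdgfrb) and 3 lower (Tagln, Cnn1 and Acta2), with sums of 1188 to 1395 against 1196 to 1592 CPM, and 2 rose and 2 fell in the KO response. Of the 8 endothelial markers, 3 were higher in KO sham (Tie1, Flt1 and Tek), with sums of 1751 to 1845 against 1477 to 1649 CPM, and none was called in the KO response by edgeR. Of the 10 fibroblast markers, 2 were higher and 2 lower after sham, and 1 rose and 1 fell in the KO response. The KO response calls of the smooth muscle, pericyte and fibroblast markers held without KO MI replicate 4. The part of these cell types in the collagen differences of KO sham was not tested.

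No collagen chain was called after infarction in wild type. A chain is called here when its Benjamini-Hochberg adjusted p over all tested genes was under 0.05 in edgeR's quasi-likelihood test. In the WT response (WT MI minus WT sham) 0 of 38 chains were called, where 2.25% of all tested genes were (1.32% higher and 0.932% lower). With an unadjusted p under 0.05 there were 7 of 38 chains, against 2007 of the 13412 tested genes. DESeq2 called 1 chain, Col8a1, as did edgeR without WT MI replicate 3. The median log2 fold change of the chains was 0.08, against -0.01 over all tested genes, and 24 of 38 were positive.

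Col1a1, which supplies a pair of the chains in each type I collagen molecule, stood at 1170.2, 1174, 1004 and 997 CPM in WT sham and at 1280.2, 1295, 1308 and 1439.8 CPM in WT MI. All 4 infarcted libraries were above all 4 sham libraries, and the fitted difference was small against its error, a log2 fold change of 0.29 ± 0.24 (SE, 95% interval -0.21 to 0.80, adjusted p = 0.612). That error was estimated from all 16 libraries, KO MI replicate 4 included. Col1a1 had an SD of 99.2 CPM in WT sham, 73.7 in WT MI and 432 in KO MI. Its partner Col1a2 stood at 1361, 1188, 1151 and 1173 CPM in WT sham and at 1356, 1288, 1242 and 1469 CPM in WT MI, and these groups overlapped (log2 fold change 0.14, 95% interval -0.14 to 0.41, adjusted p = 0.676). Col3a1, the sole chain of type III collagen, had 3452, 3223, 2969.6 and 2929 CPM after sham and 3362, 3357, 3442 and 3246 CPM after infarction, with WT sham replicate 1 the highest of the 8. In the knockout, Col1a1 stood at 838, 961, 1089.7 and 949.9 CPM after sham and at 1209, 1268, 1336 and 413 CPM after infarction. Its first 3 infarcted libraries were above every sham library and replicate 4 was below every one. The log2 fold change was 0.14 (adjusted p = 0.729) with all 4 libraries, and without KO MI replicate 4 it was 0.40 (adjusted p = 0.00419). Col1a2 followed the same course, from 0.07 (adjusted p = 0.748) to 0.23 (adjusted p = 0.0469). limma voom, which weights libraries by quality, called both with all libraries (adjusted p = 0.0423 for Col1a1 and 0.0328 for Col1a2). Col3a1 was at 0.04 with all libraries and at 0.14 without that one (adjusted p = 0.163).

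The ratio of Col1a1 to Col1a2 per exon length was 1.45 to 1.99 in 15 libraries and 1.03 in KO MI replicate 4. In wild type the fibrillar class summed to 658 ± 53.1 RPKM (SD, n = 4) after sham and 735 ± 12.6 after infarction. In the knockout it summed to 615 ± 24.6 and 639 ± 154 RPKM. On the log2 scale the class differed by 0.16 after infarction in wild type, and by 0.02 in the knockout, which became 0.22 without KO MI replicate 4. The fibroblast markers without collagens ranged from 1847 to 2039 CPM after sham and 2086 to 2135 CPM after infarction in wild type, and from 2033 to 2090 and 1665 to 2311 CPM in the knockout. Of the activated fibroblast markers, 3 of 8 rose in the WT response (Cilp, Cthrc1 and Ltbp2) and 3 of 8 in the KO response (Cthrc1, Tnc and Ddah1), and the part of fibroblasts in the collagen values was not tested. The KO calls of Cthrc1, Tnc and Ddah1 held without KO MI replicate 4.

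Among the minor fibrillar chains, the knockout response (KO MI minus KO sham) held opposite changes in the same collagen type. Over all classes 8 of 38 chains were called in this response, 2 higher and 6 lower, where 16.6% of all tested genes were called (8.54% higher and 8.02% lower). The 8 chains are 21.1% of those tested, near that background, and DESeq2 called 9. Without KO MI replicate 4 there were 12 calls, 6 higher and 6 lower, against 21.7% of tested genes (10.1% higher and 11.5% lower). The count was 4 without KO sham replicate 1, KO sham replicate 3 or KO MI replicate 2, 5 without KO MI replicate 1, and 4 (Col11a1, Col4a4, Col4a5 and Col15a1) without the 3 libraries low in Y-linked genes. The median log2 fold change of the chains was -0.09 with all libraries and 0.02 without that one.

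Col11a1 and Col11a2 encode chains of type XI collagen, which nucleates thin fibrils and limits their diameter. Col11a1 stood at 4.23, 5.44, 4.71 and 5.77 CPM in KO sham and at 5.62, 12.1, 9.78 and 8.63 CPM in KO MI, where 3 of 4 libraries were above all sham libraries. It rose with a log2 fold change of 0.85 ± 0.24 (SE, 95% interval 0.34 to 1.36, adjusted p = 0.0241). Col11a1 lost this call when any 1 of KO sham replicates 1 and 3 and KO MI replicates 2 and 3 was left out, and without KO MI replicate 4 the value was 0.86 (adjusted p = 0.0319). Col11a2 went the other way, from 6.44, 5.44, 6.65 and 6.66 CPM to 4.18, 3.3, 4.92 and 3.27 CPM with no overlap, and fell with a log2 fold change of -0.68 ± 0.22 (SE, 95% interval -1.14 to -0.22, adjusted p = 0.0402). Col11a2 lost this call when any 1 of KO sham replicates 1, 2, 3 and 4 and KO MI replicates 1, 2 and 4 was left out, and without KO MI replicate 4 the value was -0.61 (adjusted p = 0.0666), -0.53 (adjusted p = 0.0797) after the length and GC correction and -0.78 (adjusted p = 0.0787) without the 3 libraries low in Y-linked genes. In wild type the values were 10.1, 6.7, 7.31 and 7.44 CPM in sham against 9.62, 9.25, 6.22 and 15.4 CPM in infarcted hearts for Col11a1, and 4.5, 6.31, 4.2 and 2.13 against 6.09, 4.48, 6.04 and 6.18 CPM for Col11a2. Neither was called there (log2 fold change 0.36, 95% interval -0.14 to 0.86, adjusted p = 0.514 for Col11a1, and log2 fold change 0.39, 95% interval -0.09 to 0.86, adjusted p = 0.447 for Col11a2). The KO response minus the WT response was 0.49 for Col11a1 and -1.07 for Col11a2 (adjusted p = 0.481 and 0.0775 by edgeR). For Col11a2 this difference was called by DESeq2 (adjusted p = 0.0353) and limma voom (0.0119), and by edgeR without WT sham replicate 2 (0.0249) or WT MI replicate 2 (0.0332).

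Col24a1, a minor fibrillar chain that joins type I fibrils, was low in KO sham. It stood at 4.36, 3.31, 3.74 and 3.29 CPM there, at 8.84, 5.26, 7.22 and 6.13 CPM in KO MI and at 10.5, 4.36, 6.12 and 4.93 CPM in WT sham. KO sham overlapped with neither group, though its highest library (4.36 CPM) equalled the lowest WT sham library to 3 digits. Col24a1 rose after infarction in the knockout with a log2 fold change of 0.90 ± 0.25 (SE, 95% interval 0.37 to 1.43, adjusted p = 0.0216). Col24a1 lost this call when any 1 of KO sham replicates 2, 3 and 4 and KO MI replicates 1 and 3 was left out, and without KO MI replicate 4 the value was 0.94 (adjusted p = 0.0228). It was lower in KO sham than in WT sham with a log2 fold change of -0.81 ± 0.26 (SE, 95% interval -1.36 to -0.27, adjusted p = 0.0394). Col24a1 lost this call when any 1 of WT sham replicates 1 and 3 and KO sham replicates 1, 2, 3 and 4 was left out. Both calls were also lost without the 3 libraries low in Y-linked genes. There the KO response was 0.70 (adjusted p = 0.0655) and the difference after sham -0.43 (adjusted p = 0.262 by edgeR). These comparisons share the KO sham libraries. In wild type it stood at 5.84, 3.58, 6.96 and 6.27 CPM after infarction, with replicate 2 below all sham libraries and the other 3 within their range (log2 fold change -0.21, 95% interval -0.74 to 0.31, adjusted p = 0.75). The KO response minus the WT response was 1.11 (adjusted p = 0.102 by edgeR). That difference was called by limma voom (adjusted p = 0.0272) and by edgeR with the replicate block (0.0311).

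Col5a3, a minor chain of type V collagen, was called in no comparison by edgeR's main fit with all libraries, and in 3 by limma voom. In wild type it stood at 45.4, 50.3, 44.9 and 35.4 CPM after sham and 62.3, 71.6, 63.0 and 50.3 CPM after infarction. In the knockout it stood at 64.9, 55.6, 60.2 and 54.6 and 57.1, 54.7, 59.2 and 29.2 CPM. The WT sham libraries lay at or below the lowest WT MI library (50.3 CPM to 3 digits), and below all KO sham libraries. By edgeR the WT response was 0.49 (adjusted p = 0.152) and the difference of KO sham from WT sham 0.42 (adjusted p = 0.0968). The WT response was called by limma voom (adjusted p = 0.0377) and with the replicate block (0.0355), and the difference after sham by limma voom (0.00393), with the replicate block (0.0184) and with only the 2 groups compared (0.00459). The difference between the responses, KO response minus WT response, was -0.72 (adjusted p = 0.11), and -0.54 (adjusted p = 0.0457) without KO MI replicate 4. With all libraries that difference was called by limma voom (adjusted p = 0.0301) and with the replicate block (adjusted p = 0.0186).

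Type IV chains split by the trimer they build. Col4a1 and Col4a2 assemble the network found in nearly every basement membrane, Col4a3, Col4a4 and Col4a5 a network of specialised membranes such as that of the kidney glomerulus, and Col4a5 with Col4a6 that of smooth muscle and some epithelia. The genes lie in head-to-head pairs: Col4a1 with Col4a2, Col4a3 with Col4a4, and Col4a5 with Col4a6. Col4a3, Col4a4 and Col4a5 fell in the knockout after infarction, and Col4a1, Col4a2 and Col4a6 were not called there. The windows around the starts are shown for the type IV chains that had one, and Col4a3 had none. These windows run from 250 bases before to 50 bases after the start, read 5′ to 3′ on the strand of the gene, from RefSeq on GRCm38.p6, and 34 of the 43 chains had one. Capitals mark the CCAAT motif, the TATAAA motif of the TATA box and the GGGCGG motif of the GC box, each on either strand. They belong to Col4a1 at chr8:11312777-11313076 (minus strand), Col4a2 at chr8:11312555-11312854 (plus), Col4a4 at chr1:82586800-82587099 (minus), Col4a5 at chrX:141475169-141475468 (plus) and Col4a6 at chrX:141474027-141474326 (minus).
Col4a1: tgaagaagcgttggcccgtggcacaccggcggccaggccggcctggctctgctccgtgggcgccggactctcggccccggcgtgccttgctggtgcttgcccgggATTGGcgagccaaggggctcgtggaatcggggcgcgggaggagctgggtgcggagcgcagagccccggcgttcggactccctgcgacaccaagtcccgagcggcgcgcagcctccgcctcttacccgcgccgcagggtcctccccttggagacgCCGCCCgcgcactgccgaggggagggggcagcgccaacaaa
Col4a2: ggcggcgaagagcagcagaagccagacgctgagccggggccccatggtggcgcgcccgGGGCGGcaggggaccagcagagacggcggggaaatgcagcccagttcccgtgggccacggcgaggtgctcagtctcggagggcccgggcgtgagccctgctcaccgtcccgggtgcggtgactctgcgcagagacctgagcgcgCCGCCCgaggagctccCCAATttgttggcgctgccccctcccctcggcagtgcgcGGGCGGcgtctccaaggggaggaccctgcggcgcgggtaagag
Col4a4: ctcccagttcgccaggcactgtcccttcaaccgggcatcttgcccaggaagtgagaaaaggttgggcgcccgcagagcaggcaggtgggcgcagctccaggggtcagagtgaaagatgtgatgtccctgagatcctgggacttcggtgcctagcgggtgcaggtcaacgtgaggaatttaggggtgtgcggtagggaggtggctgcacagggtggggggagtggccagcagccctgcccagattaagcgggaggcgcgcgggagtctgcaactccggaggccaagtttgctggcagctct
Col4a5: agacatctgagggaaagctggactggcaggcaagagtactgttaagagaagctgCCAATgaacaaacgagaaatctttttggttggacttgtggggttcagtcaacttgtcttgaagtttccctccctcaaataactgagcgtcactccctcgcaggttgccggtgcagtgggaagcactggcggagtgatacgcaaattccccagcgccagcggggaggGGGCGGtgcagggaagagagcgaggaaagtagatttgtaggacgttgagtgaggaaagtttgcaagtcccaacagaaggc
Col4a6: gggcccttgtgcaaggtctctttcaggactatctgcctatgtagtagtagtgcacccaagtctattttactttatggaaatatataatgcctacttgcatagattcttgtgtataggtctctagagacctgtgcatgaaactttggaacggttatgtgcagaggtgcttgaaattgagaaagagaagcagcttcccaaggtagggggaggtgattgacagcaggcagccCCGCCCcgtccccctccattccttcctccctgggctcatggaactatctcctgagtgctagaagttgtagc

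The windows of Col4a1 and Col4a2 overlap by 78 bases, and the starts of Col4a6 and Col4a5 are 1343 bases apart. The windows held 74.0% GC in Col4a1, 73.7% in Col4a2, 63.3% in Col4a4, 52.7% in Col4a5 and 48.3% in Col4a6, against a mean of 53.8% over all 32851 windows. CCAAT occurred once in the windows of Col4a1, Col4a2 and Col4a5, and was not found in those of Col4a4 and Col4a6. GGGCGG occurred 3 times in Col4a2 and once each in Col4a1, Col4a5 and Col4a6. TATAAA was not found in any of the 5. Over all windows of the same length 37.4% held CCAAT, 35.7% GGGCGG and 13.6% TATAAA. Exons of Col4a1 and Col4a2 overlap by 22 bases on opposite strands, and the counts cannot be assigned to a strand.

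Col4a3, Col4a4 and Col4a5 fell after infarction in the knockout. Col4a4 stood at 8.2, 6.03, 6.5 and 8.1 CPM in KO sham and at 4.04, 3.65, 5.05 and 2.92 CPM in KO MI, with every infarcted library below every sham library. It fell with a log2 fold change of -0.88 ± 0.19 (SE, 95% interval -1.27 to -0.48, adjusted p = 0.00478), the smallest adjusted p of the chains in this response. Col4a3, its head-to-head neighbour, stood at 4.43, 3.46, 4.19 and 6.42 CPM in KO sham and at 2.12, 1.82, 2.17 and 2.71 CPM in KO MI, again without overlap, and fell with a log2 fold change of -1.06 ± 0.32 (SE, 95% interval -1.74 to -0.38, adjusted p = 0.0314). Col4a5, far more abundant, went from 108, 107, 99.1 and 117 CPM to 92.7, 88.4, 81.0 and 67.1 CPM without overlap, and fell with a log2 fold change of -0.39 ± 0.10 (SE, 95% interval -0.60 to -0.19, adjusted p = 0.0117). The calls of Col4a4 and Col4a5 held in all 8 fits that left out 1 library, with -0.77 (adjusted p = 0.00841) and -0.31 (adjusted p = 0.0173) without KO MI replicate 4. Col4a3 lost this call when any 1 of KO sham replicates 1, 3 and 4 and KO MI replicates 1, 2 and 3 was left out, and without KO MI replicate 4 the value was -1.18 (adjusted p = 0.028). It was also lost without the 3 libraries low in Y-linked genes (-1.16, adjusted p = 0.0617 by edgeR). Col4a6, the neighbour of Col4a5, stood at 3.9, 4.63, 3.59 and 4.57 CPM and 3.7, 5.12, 4.0 and 3.41 CPM (log2 fold change -0.04, 95% interval -0.48 to 0.40, adjusted p = 0.922).

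In wild type the log2 fold changes of these chains were negative and none was called. Col4a4 stood at 6.49, 6.08, 6.3 and 4.06 CPM in WT sham and 3.7, 3.82, 4.76 and 5.32 CPM in WT MI, overlapping through WT sham replicate 4 (log2 fold change -0.39, 95% interval -0.80 to 0.01, adjusted p = 0.352). Col4a5 had 103, 96.4, 99.6 and 102 CPM and 76.3, 86.7, 103 and 90.7 CPM (log2 fold change -0.17, 95% interval -0.38 to 0.04, adjusted p = 0.439), and Col4a3 4.15, 1.48, 3.2 and 3.0 CPM and 1.89, 0.836, 2.2 and 3.69 CPM (log2 fold change -0.49, 95% interval -1.22 to 0.25, adjusted p = 0.556). The difference between the KO and WT responses was -0.48 for Col4a4 (95% interval -1.05 to 0.08, adjusted p = 0.361), so the responses are not shown to differ.

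Col4a1 and Col4a2, the abundant pair, did not pass the test in any comparison. In KO MI, Col4a1 stood at 1875, 1943, 2018 and 1055 CPM and Col4a2 at 1447, 1518, 1566 and 725 CPM, where replicate 4 was far below the other 3. Their KO response was -0.15 for Col4a1 and -0.21 for Col4a2 on the log2 scale with all libraries, and 0.02 and -0.01 without that one. The type IV class summed to 503 ± 33.1 RPKM (SD, n = 4) after sham and 515 ± 27.2 after infarction in wild type, and to 503 ± 31.7 and 443 ± 121 RPKM in the knockout. Among 11 tested partners of type IV collagen in the basement membrane, Lama2, Nid1 and Lamc1 fell in the KO response, by 0.68, 0.53 and 0.50 on the log2 scale (adjusted p = 0.000786, 0.00626 and 0.0126), and none rose, where 8.02% of all tested genes fell. Without KO MI replicate 4 their values were -0.59, -0.46 and -0.37 (adjusted p = 0.00091, 0.0124 and 0.0151). The 13 listed partners summed to 5463 to 5814 CPM in KO sham, 4849 to 4917 in KO MI replicates 1 to 3 and 2686 in replicate 4.

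**Figure D3:**
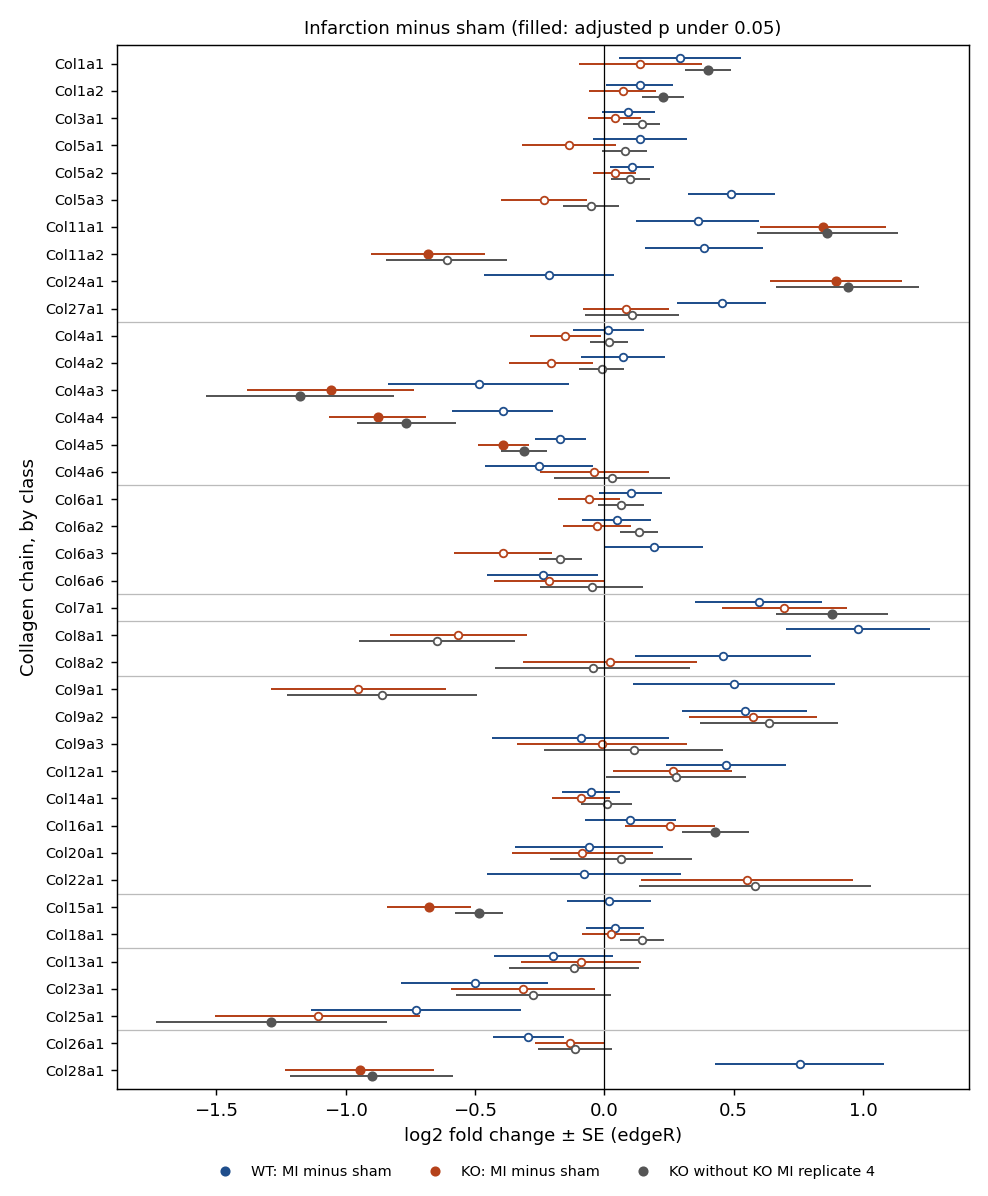
Log2 fold change ± SE (edgeR) of each tested chain after infarction, in wild type, in the knockout with all libraries and in the knockout without KO MI replicate 4. Filled points have an adjusted p under 0.05: none in wild type, 8 in the knockout and 12 without that library. Col4a3, Col4a4, Col4a5, Col15a1 and Col28a1 are filled on the lower side in both knockout fits.

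Col15a1, a multiplexin that links basement membranes to the underlying matrix around muscle fibres and capillaries, fell after infarction in the knockout. It stood at 487, 459, 481 and 488 CPM in KO sham and at 348, 311, 370.1 and 167 CPM in KO MI, all below sham. It fell with a log2 fold change of -0.68 ± 0.16 (SE, 95% interval -1.02 to -0.34, adjusted p = 0.00979), and without KO MI replicate 4 the log2 fold change was -0.49 (adjusted p = 0.00145). The call held in all 8 fits without 1 library. In wild type it stood at 411, 405, 377 and 398 CPM after sham and 408, 332, 412 and 461 CPM after infarction, with no clear order (log2 fold change 0.02, 95% interval -0.32 to 0.36, adjusted p = 0.975). All 4 KO sham libraries were above all WT sham libraries, and that difference did not pass edgeR's test (log2 fold change 0.27, 95% interval -0.07 to 0.61, adjusted p = 0.271) but was called by limma voom (adjusted p = 0.0169) and with only the 2 groups compared (adjusted p = 0.009). The difference between the responses was -0.70 (adjusted p = 0.112) with all libraries and -0.50 (adjusted p = 0.0281) without KO MI replicate 4, and it was called with all libraries by limma voom (-0.59, adjusted p = 0.00831) and after the length and GC correction (-0.67, adjusted p = 0.041). Col18a1, the other multiplexin and the source of endostatin, was at 0.03 in the KO response (95% interval -0.21 to 0.26).

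Col8a1, a short-chain collagen of vessel walls, had its highest value in 1 WT MI library. In wild type it stood at 4.5, 4.21, 3.47 and 5.61 CPM after sham and 7.49, 7.1, 4.76 and 15.8 CPM after infarction. In the knockout it stood at 7.68, 6.1, 9.86 and 8.34 and 5.07, 5.89, 4.4 and 6.27 CPM. The KO sham libraries were all above WT sham, and it was called higher there with a log2 fold change of 0.85 ± 0.28 (SE, 95% interval 0.27 to 1.43, adjusted p = 0.0456). Col8a1 lost this call when any 1 of WT sham replicates 1, 2 and 3 and KO sham replicates 1, 3 and 4 was left out, with no filter on low counts and after the length and GC correction. It was also lost without the 3 libraries low in Y-linked genes (0.96, adjusted p = 0.0829 by edgeR). Col8a1 was 1 of 4 chains called between genotypes after sham (10.5% of 38), where 15.3% of all tested genes were called (7.6% higher and 7.74% lower), and DESeq2 also called 4. The count was 2 without WT sham replicate 1 or KO sham replicate 2, 3 or 4, 1 without WT sham replicate 3 or KO sham replicate 1, and 1 (Col9a1) without the 3 libraries low in Y-linked genes. The WT response was 0.98 (adjusted p = 0.0741), with WT MI replicate 4 at 15.8 CPM, and the KO response was -0.56 (adjusted p = 0.153), which was called by limma voom (-0.65, adjusted p = 0.048) and with only the 2 groups compared (adjusted p = 0.0377). The interaction, which tests the difference between those responses, was called at -1.55 ± 0.38 (SE, adjusted p = 0.0362). Col8a1 lost this call when any 1 of WT sham replicates 1, 2 and 3 and KO sham replicates 1, 3 and 4 and WT MI replicate 1 and KO MI replicates 1, 2 and 3 was left out, and without KO MI replicate 4 the value was -1.62 (adjusted p = 0.0368).

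In that interaction 2 of 38 chains were called, both lower, where 2.74% of all tested genes were (1.65% higher and 1.1% lower), and DESeq2 called 3. Without KO MI replicate 4 there were 4 calls (Col5a3, Col8a1, Col15a1 and Col28a1) against 4.51% of tested genes (2.52% higher and 1.99% lower). The count was 0 without WT sham replicate 1 or 3, KO sham replicate 1 or 4, KO MI replicate 2 or WT MI replicate 1, and 0 without the 3 libraries low in Y-linked genes. It was 1 without KO MI replicate 1 or 3, KO sham replicate 2 or 3, or WT MI replicate 4. The other chain called with all libraries was Col28a1, a collagen with von Willebrand factor domains that is best known from Schwann cell basement membranes. In wild type it stood at 1.04, 1.4, 0.822 and 1.35 CPM after sham and 2.96, 1.19, 1.56 and 2.23 CPM after infarction. In the knockout it stood at 3.25, 4.19, 2.09 and 2.57 and 1.64, 1.12, 2.1 and 1.39 CPM. KO sham was the highest group, with all 4 libraries above all WT sham libraries. Col28a1 was higher in KO sham than in WT sham with a log2 fold change of 1.38 ± 0.31 (SE, 95% interval 0.73 to 2.03, adjusted p = 0.00594), which held in all 8 fits without 1 library and was lost without the 3 libraries low in Y-linked genes (1.14, adjusted p = 0.0618). It fell in the KO response with a log2 fold change of -0.95 ± 0.29 (SE, 95% interval -1.55 to -0.34, adjusted p = 0.0307). Col28a1 lost this call when any 1 of KO sham replicates 1 and 2 and KO MI replicate 2 was left out, and without KO MI replicate 4 the value was -0.90 (adjusted p = 0.0472). It was also lost without the 3 libraries low in Y-linked genes (-0.78, adjusted p = 0.16 by edgeR). The interaction was -1.70 ± 0.44 (SE, adjusted p = 0.0392). Col28a1 lost this call when any 1 of WT sham replicates 1 and 3 and KO sham replicates 1, 2 and 4 and WT MI replicates 1 and 4 and KO MI replicate 2 was left out, and without KO MI replicate 4 the value was -1.65 (adjusted p = 0.0449). The 5 Schwann cell markers summed to 5.51 to 38.3 CPM after sham and 4.63 to 11.8 CPM after infarction in wild type, and to 6.38 to 7.94 and 4.77 to 5.89 CPM in the knockout. None of the 4 tested ones was called in these comparisons, and their part in the result was not tested.

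Col9a1, a FACIT chain of cartilage fibrils that is also made in other tissues, was the remaining chain called after sham. It stood at 1.04, 0.39, 0.639 and 0.87 CPM in WT sham and 2.6, 1.62, 1.79 and 0.802 CPM in KO sham, where 3 of 4 knockout libraries were above all wild type ones and replicate 4 lay among them. The difference was a log2 fold change of 1.24 ± 0.36 (SE, 95% interval 0.48 to 1.99, adjusted p = 0.0266), with levels near the floor of 0.179 to 0.290 CPM that 3 reads give. Col9a1 was over the filter level in every library of KO sham and WT MI only. Col9a1 lost this call when any 1 of WT sham replicates 2 and 3 and KO sham replicates 1, 2 and 3 was left out. Acan, the only cartilage marker that was tested, was not called in this comparison.

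**Figure D4:**
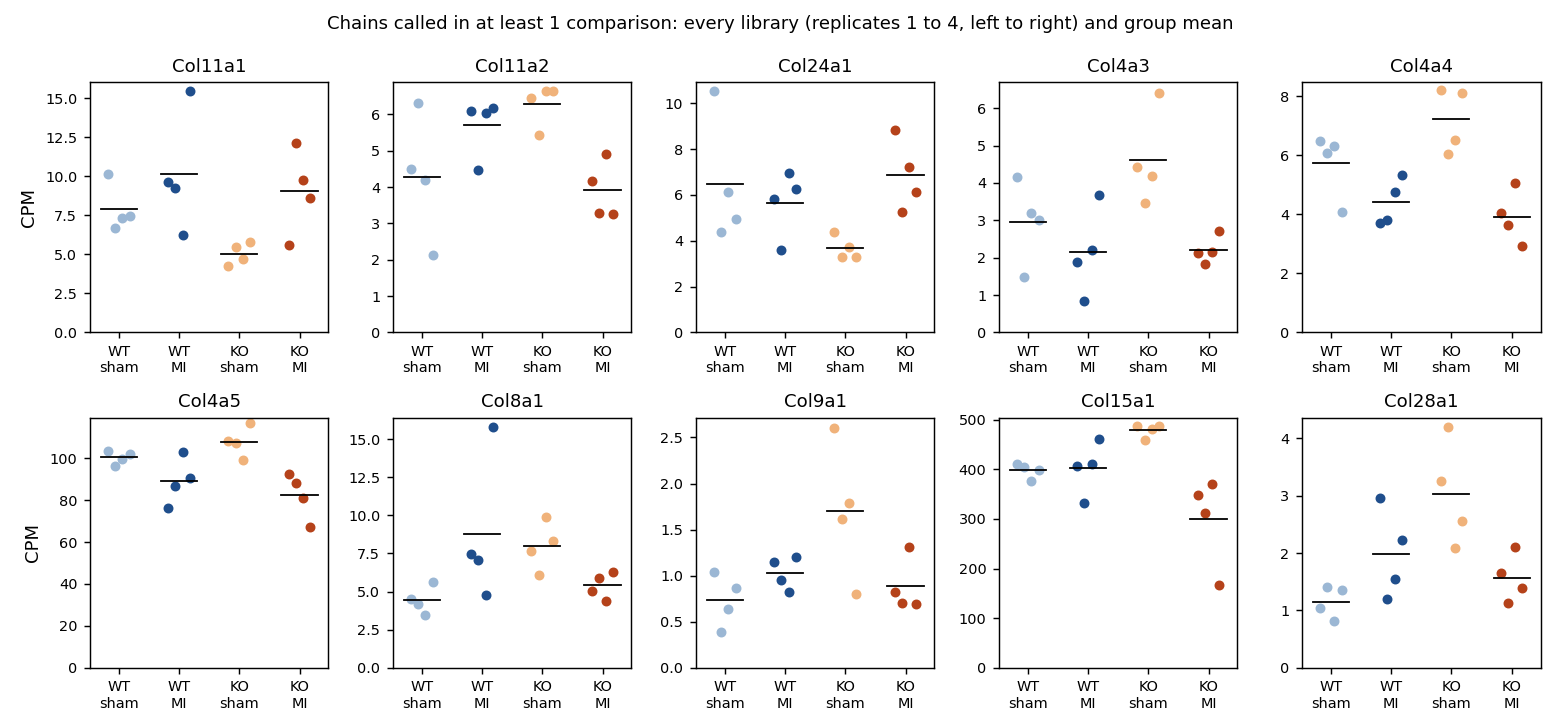
Level in CPM of the 10 chains called in at least 1 comparison, with each library as a point (replicates 1 to 4 from left to right) and the group mean as a line. KO sham is the lowest group for Col11a1 and Col24a1 and the highest for Col11a2, Col4a3, Col4a4, Col4a5, Col9a1, Col15a1 and Col28a1, by group mean.

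The remaining FACIT, anchoring fibril and transmembrane chains showed few calls. Col7a1, the chain of anchoring fibrils, stood at 3.12, 3.46, 3.21 and 2.17 CPM in KO sham and 5.27, 6.6, 4.79 and 2.78 CPM in KO MI. Its KO response was 0.70 (adjusted p = 0.0536), just short of a call, and 0.88 without KO MI replicate 4 (adjusted p = 0.00803). With all libraries it was called by DESeq2 (adjusted p = 0.0466), by limma voom (0.00247), and by edgeR with upper quartile scaling (0.0429), a filter at a mean of 50 counts (0.047), the replicate block (0.0467) or the length and GC correction (0.00762). Its WT response was 0.60 (adjusted p = 0.25) with every infarcted library above every sham library. Col16a1, a FACIT chain, was called in the KO response without KO MI replicate 4 (0.43, adjusted p = 0.0259) and with all libraries by limma voom (0.40, adjusted p = 0.0114). Col25a1, a transmembrane chain with 3 to 15 reads per library, was called there without KO MI replicate 4 (-1.29, adjusted p = 0.0444), without KO sham replicate 2 (-1.34, adjusted p = 0.0365) and by limma voom (-1.11, adjusted p = 0.0268). limma voom also called the FACIT chains Col9a2 in the KO response (0.57, adjusted p = 0.0375) and Col22a1 after sham (-1.15, adjusted p = 0.0164), which edgeR's main fit did not. By edgeR, Col9a2 was called there with only the 2 groups compared (0.58, adjusted p = 0.0379), and Col22a1 without KO sham replicate 3 (-1.43, adjusted p = 0.0391). Col14a1, the most abundant FACIT chain at 30.1 RPKM, was at -0.05 in the WT response and -0.09 in the KO response. Of the beaded filament chains, which form the type VI microfibrils around cells, edgeR's main fit called none. Col6a3 had all KO MI libraries (179, 174, 185 and 74.6 CPM) below all KO sham libraries (199, 187, 204 and 215 CPM), and a log2 fold change of -0.39 (adjusted p = 0.164) that became -0.17 (adjusted p = 0.153) without replicate 4. All 4 KO sham libraries of Col6a3 also lay above all WT sham libraries (175, 155, 152 and 151 CPM), a difference of 0.35 (adjusted p = 0.219) that was called by limma voom (adjusted p = 0.00941) and with only the 2 groups compared (adjusted p = 0.00282).

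After infarction no chain was called between the genotypes. In KO MI minus WT MI 0 of 38 chains were called by edgeR, where 0.0149% of all tested genes were called (0.00746% in each direction), and DESeq2 called 0. With an unadjusted p under 0.05 there were 4 of 38 chains, against 638 of the 13412 tested genes. Of the 38 differences 33 were negative, with a median of -0.18 on the log2 scale against 0.00 over all tested genes. Without KO MI replicate 4, 27 were negative and the median was -0.04, with 0 calls against 0.0296% of tested genes (0.0222% higher and 0.0074% lower). In that fit 3 chains had an unadjusted p under 0.05, against 624 of 13516 tested genes. The 95% interval of the log2 difference was -0.84 to 0.17 for Col1a1 and -0.49 to 0.08 for Col4a1, and both intervals span 0. The 4 chains with an unadjusted p under 0.05 had intervals below 0, at -0.70 (-1.25 to -0.14) for Col8a1, -0.53 (-0.99 to -0.06) for Col11a2, -0.50 (-0.99 to -0.01) for Col9a2 and -0.43 (-0.77 to -0.09) for Col15a1, with adjusted p of 0.97 to 0.976. Their groups overlapped, and without KO MI replicate 4 the values were -0.78, -0.45, -0.43 and -0.23.

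The genes that make, trim and bind collagen were read from 7 lists of 81 genes, of which 75 were tested. In the WT response 2 rose and 0 fell (2.67% of 75, against 2.25% of all tested genes). In the KO response 10 rose and 7 fell (22.7% against 16.6%), and without KO MI replicate 4 15 rose and 9 fell (32% against 21.7%). Between genotypes after sham 7 were higher and 8 lower in KO (20% against 15.3%). After infarction edgeR called none of them, against 0.0149% of all tested genes, and the interaction held 3 higher and 1 lower (5.33% against 2.74%). Without the 3 libraries low in Y-linked genes, 1 gene was called in the WT response, 12 in the KO response, 8 after sham and 1 in the interaction. For that fit no share of all tested genes is given, so these counts are not set against a background. Of the 17 calls in the KO response, P4hb alone was lost without KO MI replicate 4 (0.19, adjusted p = 0.0657).

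Of the 19 tested enzymes and chaperones of chain folding, 6 rose and 1 fell in the KO response, where 8.54% of all tested genes rose and 8.02% fell. P4ha1, a catalytic subunit of prolyl 4-hydroxylase, was at 30.1 ± 1.67 CPM (SD, n = 4) in KO sham and 44.7 ± 2.95 in KO MI, with a log2 fold change of 0.57 (adjusted p = 0.000786), and it rose by 0.41 in wild type (adjusted p = 0.0257), a call lost without WT sham replicate 2 or 4 or WT MI replicate 1 or 2. Serpinh1, the collagen chaperone HSP47, was at 490 ± 9.02 CPM in KO sham and 600.4 ± 25.1 in KO MI (log2 fold change 0.29, adjusted p = 0.0109). Ppib, a prolyl isomerase, had a KO response of 0.43 (adjusted p = 0.00147). Both were lower in KO sham than in WT sham, with log2 fold changes of -0.40 for Serpinh1 and -0.37 for Ppib (adjusted p = 0.00135 and 0.00335), and their interactions were 0.40 and 0.41 (adjusted p = 0.0395 and 0.0446). The interaction call of Serpinh1 was lost in 13 of 16 fits that left out 1 library (all but WT sham replicate 1, WT MI replicate 2 and KO MI replicate 4) and that of Ppib in 12 of 16 (all but those 3 and KO MI replicate 1). That of Serpinh1 was also lost without the 3 libraries low in Y-linked genes (adjusted p = 0.0716 by edgeR). Colgalt2, which adds galactose to hydroxylysine, fell by 0.78 in the KO response (adjusted p = 0.00782). Without KO MI replicate 4 the KO responses were 0.61 for P4ha1, 0.32 for Serpinh1, 0.42 for Ppib and -0.75 for Colgalt2. None of the 8 genes of export from the endoplasmic reticulum was called in any comparison.

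Outside the cell, the lists moved in both directions. Among 8 tested genes of propeptide cleavage, Adamts3, a procollagen N-propeptidase, fell by 0.51 and Pcolce2, an enhancer of C-propeptide cleavage, fell by 0.32 in the KO response (adjusted p = 0.0144 and 0.0198, and -0.48 and -0.34 without KO MI replicate 4). Adamts3 lost its call without KO sham replicate 4, and Pcolce2 without KO sham replicate 2 or KO MI replicate 2. Both were also lost without the 3 libraries low in Y-linked genes (adjusted p = 0.0638 and 0.0882 by edgeR). Pcolce2 was 0.56 higher in KO sham (adjusted p = 0.000468). The cross-linking transglutaminase Tgm2 rose by 0.48 in the KO response (adjusted p = 0.0119, and 0.52 without KO MI replicate 4), a call lost without KO MI replicate 2, while no lysyl oxidase of the list was called. Thbs1, a matricellular glycoprotein, was at 60.6 ± 10.5 CPM in WT sham, 23.1 ± 3.67 in KO sham and 44.9 ± 6.64 in KO MI (SD, n = 4). It was lower in KO sham (log2 fold change -1.39, adjusted p = 5.85e-05) and rose in the KO response (0.96, adjusted p = 0.00173, and 0.97 without KO MI replicate 4). Of the receptors, Lair1, an inhibitory collagen receptor of leukocytes, rose in both genotypes, by 1.76 in wild type and 1.42 in the knockout (adjusted p = 0.0423 and 0.0106), from 0.245 to 0.817 CPM and from 0.508 to 1.35 CPM. The WT sham mean lay within the floor of 0.179 to 0.290 CPM that 3 reads give. The wild type call was lost in 7 of 8 fits that left out 1 library (all but WT MI replicate 3). It was also lost without the 3 libraries low in Y-linked genes (adjusted p = 0.126 by edgeR). The knockout value was 1.30 without KO MI replicate 4. Macrophage markers rose beside Lair1, 3 of 8 in the WT response and 6 of 8 in the KO response, and their part in the Lair1 values was not tested. Of these KO calls, that of Fcgr1 was lost without KO MI replicate 4 (adjusted p = 0.115 by edgeR). Between genotypes after sham, Itga1 and Ddr2 were higher and Ddr1 lower in KO (0.55, 0.64 and -0.53 on the log2 scale, adjusted p = 0.0105, 0.0418 and 0.0201). Ddr2 lost this call in 6 of 8 fits that left out 1 library (all but WT sham replicates 1 and 4), and Ddr1 without WT sham replicate 2 or KO sham replicate 1 or 4. Without the 3 libraries low in Y-linked genes neither Ddr2 nor Ddr1 was called (adjusted p = 0.0617 and 0.0881 by edgeR).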

How the data were processed

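Sequencing libraries of polyadenylated RNA from 16 ventricle samples were described by the authors' deposited table of unnormalised read counts per Ensembl gene (unit: count), with groups taken from the labels. Per the submitters' processing notes, the build was GRCm39 and the tools included HISAT2 2.2.1, HTSeq 0.13.5, cutadapt 3.4, bcl2fastq 2.17, DESeq2 and FastQC. The strand setting and the annotation release are not given in the sources used here, and the NEBNext Ultra kit named in the labels' protocols does not mark strand. Lines of the table that name no gene were left out. Of the reads in all lines of the table, these included, 23.7 to 28.2% were assigned to no counted feature and 1.56 to 2.08% were ambiguous.

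Gene symbols, exon lengths and GC content came from the annotation of GRCm38 in GENCODE, an older build, so no gene coordinates are given apart from the RefSeq promoter windows. A symbol was found for 22362 of 22468 genes. Levels between chains are in RPKM over the union of exons, and levels between samples in CPM with TMM-scaled library totals. Gene counts of 10711442 to 17223580 per library make 3 counts worth 0.179 to 0.290 CPM, and this floor covers counting error only.

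edgeR 4.0.16 in R 4.3.3 was used with TMM scaling. The filterByExpr filter kept 13412 genes. A robust quasi-likelihood model with a mean per group was fitted to the 16 libraries (12 residual degrees of freedom) and tested two-sided, with Benjamini-Hochberg adjustment over all tested genes. A gene was called at an adjusted p under 0.05. The comparisons of the KO response, of the genotypes after sham and of the interaction share the KO sham libraries. The alternatives were DESeq2 1.42.0, voom in limma 3.58.1 with weights for sample quality, upper quartile and RLE scaling, no filter, a filter at a mean of 50 counts, a replicate block, only the groups compared, a correction for length and GC content, leaving out each library in turn, and leaving out the 3 libraries low in Y-linked genes. The replicate numbers of the titles were not used to pair the samples in the main fit. The 24 pairs of same-numbered libraries had deviations correlated at -0.10 to 0.48, with 4 over 0.1, against -0.33 to 0.21 for the other pairs between groups. The highest value was that of WT sham replicate 2 with WT MI replicate 2, and whether these share a batch was not tested. No pair of libraries of a group agreed within sampling noise. The fit was tested on simulated data.

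The chains, the 7 lists of collagen-processing genes and the marker lists were chosen with earlier results of these data known. The rule for named genes was that every chain may be named with its level, with called chains given in full, and that called genes of the lists are named. Col5a3, Col7a1, Col16a1, Col6a3 and Col25a1 were named after their values were seen.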

Additional observations from a re-analysis of the deposited data

Results flagged for a closer look

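In 8 of 64 sets of 4 libraries, 1 library lay apart from the other 3 by more than Dixon's 95% limit, where chance gives about 1 in 20 such sets. KO MI replicate 4 accounted for 3 of them: its fibrillar chains summed to 409 RPKM against 698 to 742 in the other 3 libraries, its type IV chains to 262 RPKM against 485 to 520, and its ratio of Col1a1 to Col1a2 was 1.03 against 1.79 to 1.88. WT sham replicate 4 had a beaded filament sum of 154 RPKM against 185 to 188, and Col4a4 at 4.06 CPM against 6.08 to 6.49. The ratio of Col1a1 to Col1a2 was 1.87 in WT sham replicate 2 against 1.61 to 1.65. In WT MI, the fibrillar sum was 754 RPKM in replicate 4 against 726 to 730, and Col11a2 stood at 4.48 CPM in replicate 2 against 6.04 to 6.18.

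By the interaction test of edgeR, 2 of 38 chains were called (5.26%), where 2.74% of all tested genes were. The KO response minus the WT response was -1.55 on the log2 scale for Col8a1 (adjusted p = 0.0362) and -1.70 for Col28a1 (adjusted p = 0.0392). Each call was lost in several fits that left out 1 library. Without the 3 libraries low in Y-linked genes neither was called (adjusted p = 0.0854 and 0.139 by edgeR).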

How the results depend on the processing

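Counts of called chains moved with the test and with the libraries used. Apart from the fits without KO MI replicate 4, no share of all tested genes called is given for these alternatives. Counts under the alternatives, here and above, are therefore not a result about collagens in particular. In the WT response, 0 by edgeR, the count was 1 with DESeq2, 1 with limma voom, 1 after the length and GC correction, and 0 to 1 when a library was left out. In the KO response, 8 by edgeR, it was 15 with limma voom, 4 without the 3 libraries low in Y-linked genes and 4 to 12 when a library was left out. Between genotypes after sham, 4 by edgeR, it was 9 with limma voom, 2 with the filter at a mean of 50 counts, 8 with only the groups compared, 1 without the low-Y libraries and 1 to 5 when a library was left out. In the interaction, 2 by edgeR, it was 6 with limma voom, 1 with the filter at 50 counts, 0 without the low-Y libraries and 0 to 4 when a library was left out. With the replicate block the counts were 2 in the WT response (Col5a3 and Col8a1), 9 in the KO response, 5 after sham, 0 after infarction and 3 in the interaction. The replicate block also ended the interaction call of Col28a1. The cause of these shifts was not tested.

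Over the 190 pairs of chain and comparison, no log2 fold change of a called pair reversed sign in any alternative. In the alternatives other than leaving out a library, 13 of 133 refitted calls were lost and 38 gained, and when a library was left out, 60 of 128 were lost and 16 gained. Only Col4a4, Col4a5 and Col15a1 in the KO response stayed called in every one of these alternatives. With the longest transcript as length, the ratio of Col1a1 to Col1a2 was 0.805 after sham and 0.898 after infarction in wild type, and 0.772 and 0.777 in the knockout, in place of 1.69, 1.88, 1.62 and 1.63. The difference of Chrna7 between genotypes after infarction ranged from 0.098 to 0.157 CPM when a library was left out, and without WT MI replicate 1 it reached the smallest exact permutation p that design allows, 0.0286. Depth limits the chains near the floor: Col9a1, Col9a3, Col22a1, Col25a1 and Col28a1 rest on few reads per library.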
